A study of Homo sapiens with 6 samples.

Results

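Duplicated gene copies of 6 human families were followed in AGS cells, an established line from a gastric adenocarcinoma, on 6 arrays. They are the golgins GOLGA6 and GOLGA8, the neuroblastoma breakpoint family NBPF, the RANBP2-like family RGPD, the nuclear pore complex interacting protein family NPIP, and NOTCH2NL. A gene belonged to the set when probe sets naming it alone carried a symbol of these families. This gave 19 of the 18656 genes measured, read by 158 of the 224320 probe sets that name 1 gene. They were 1 GOLGA6, 3 GOLGA8, 10 NBPF, 1 RGPD and 3 NPIP genes and NOTCH2NL. The genes were chosen by symbol, but the families were selected on measured values, the differences between inhibitor and control arrays, in which GOLGA6C, GOLGA8EP and RGPD4 had been singled out. Differences between the groups of arrays are therefore given as a description of these genes, with p-values adjusted over all 18656 genes, and support nothing about the families.

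The AGS cells were given an inhibitor directed against the microRNA miR-25-3p (inhibitor, 3 arrays) or a non-targeting control RNA (control, 3 arrays). Both were delivered with the lipid reagent Oligofectamine, the transfection was repeated at 24 h, and total RNA was taken at 48 h. From each sample 500 ng of RNA was labelled for the Affymetrix Human Gene 1.0 ST array. All samples come from 1 cell line, and the labels call the 3 samples of a group biological replicates without saying how their cultures were kept apart. The microRNA that the inhibitor is directed against is shown here because it defines the groups, with its seed (bases 2 to 8), the stretch that pairs with target messages, in capitals. The sequence is that of RefSeq (GRCh38.p14, chr7:100093571-100093592, minus strand).
miR-25-3p: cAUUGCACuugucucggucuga

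All 6 families arose by segmental duplication, the copying of long stretches of a chromosome, and human genomes carry many copies that are almost the same. The GOLGA6 and GOLGA8 genes descend from the gene of the golgin GM130 (GOLGA2), a coiled-coil protein that tethers vesicles at the Golgi. The RGPD genes are partial copies of RANBP2, a large nucleoporin on the cytoplasmic face of the nuclear pore, and carry a GRIP domain that can bind Golgi membranes. NBPF genes hold tandem Olduvai (DUF1220) repeats, which multiplied in the human lineage. NOTCH2NL genes are partial copies of NOTCH2, known for keeping human cortical progenitors dividing. NPIP genes, also called the morpheus family, spread over chromosome 16 in apes, and their copies lie near those of PKD1, the gene of polycystin 1.

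How alike such copies are is seen just before their start sites, where 250 bases of RefSeq promoter sequence (GRCh38.p14) were compared position by position without gaps. NPIPA1 and NPIPA5 matched at 249 of 250 bases, and so did GOLGA6B and GOLGA6D. These pairs are shown to make the likeness of copies visible. The base that differs is in capitals, A206T from NPIPA1 to NPIPA5 and T192G from GOLGA6B to GOLGA6D, with positions counted from 1 at the 5′ end of the stretch. The stretches lie at chr16:14937193-14937442 (plus strand, NPIPA1), chr16:15378295-15378544 (minus strand, NPIPA5), chr15:72654447-72654696 (plus strand, GOLGA6B) and chr15:75282585-75282834 (plus strand, GOLGA6D).
NPIPA1: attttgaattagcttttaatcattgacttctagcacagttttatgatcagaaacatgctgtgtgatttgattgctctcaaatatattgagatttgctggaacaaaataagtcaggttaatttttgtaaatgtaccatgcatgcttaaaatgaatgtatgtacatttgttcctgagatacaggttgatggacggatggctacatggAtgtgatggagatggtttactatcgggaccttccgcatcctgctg
NPIPA5: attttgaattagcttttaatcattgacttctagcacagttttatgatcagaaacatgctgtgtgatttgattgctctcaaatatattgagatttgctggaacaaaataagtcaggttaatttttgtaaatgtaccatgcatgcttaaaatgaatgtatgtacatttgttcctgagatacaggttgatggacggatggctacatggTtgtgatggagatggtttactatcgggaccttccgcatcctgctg
GOLGA6B: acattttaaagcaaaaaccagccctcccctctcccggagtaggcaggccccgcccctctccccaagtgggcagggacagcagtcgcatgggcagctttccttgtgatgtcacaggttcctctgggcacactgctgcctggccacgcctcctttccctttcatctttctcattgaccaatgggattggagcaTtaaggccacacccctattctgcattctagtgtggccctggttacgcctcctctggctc
GOLGA6D: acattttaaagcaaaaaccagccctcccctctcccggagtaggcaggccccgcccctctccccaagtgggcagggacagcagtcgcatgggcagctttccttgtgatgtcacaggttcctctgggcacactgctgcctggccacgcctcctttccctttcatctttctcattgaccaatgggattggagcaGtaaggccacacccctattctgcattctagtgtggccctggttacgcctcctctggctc

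The families differed in this respect. Among GOLGA6 copies 3 of 6 pairs matched at 240 or more of the 250 bases, and GOLGA6A and GOLGA6B matched at all 250. Among GOLGA8 copies 16 of 78 pairs did so, with GOLGA8J and GOLGA8T identical. Only 1 of 66 NBPF pairs, NBPF8 and NBPF9 at 247 bases, and 2 of 66 NPIP pairs reached that level. No pair of the 4 RGPD or the 4 NOTCH2NL promoters did, the best being 71 bases for RGPD1 and RGPD8 and 89 bases for NOTCH2NLR and NOTCH2NLA. An insertion or deletion shifts every later base in such a comparison, so a low count does not show that the copies differ throughout.

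The annotation of the array used here names fewer copies than RefSeq. In the RefSeq table there were 4 GOLGA6, 19 GOLGA8, 23 NBPF, 8 RGPD, 24 NPIP and 4 NOTCH2NL genes, while the array's probe sets named 38 copies in all, 19 of them only together with others. For 2 members the array symbol no longer points to 1 gene. NPIP is an older name of 7 RefSeq genes, among them NPIPA1, NPIPA5 and NPIPB3, and NOTCH2NL is an older name of NOTCH2NLA, NOTCH2NLB and NOTCH2NLC. In the RefSeq table all 4 NOTCH2NL genes lie next to an NBPF gene, for example NOTCH2NLA next to NBPF10. The other renamed members are GOLGA8EP (GOLGA8E on the array), NBPF7P (NBPF7), NPIPB15 (NPIPL2) and NPIPB3 (NPIPL3).

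Whether a value can be assigned to 1 copy was read from the table itself. Of the 860 probe sets naming any copy, 702 (81.6%) named several genes, with a median of 5 and at most 10. These were kept out of the gene values and are described separately. Of the 158 probe sets naming 1 member, 76 (48.1%) held the same 6 values, to 2 decimals, as at least 1 other probe set in the table. Among the 224162 probe sets naming 1 gene outside the families this share was 2.13%, and among the 702 naming a member with others it was 83.0%. Together the 860 probe sets held 419 different sets of 6 values, so many of them are not separate measurements.

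**Figure D1:**
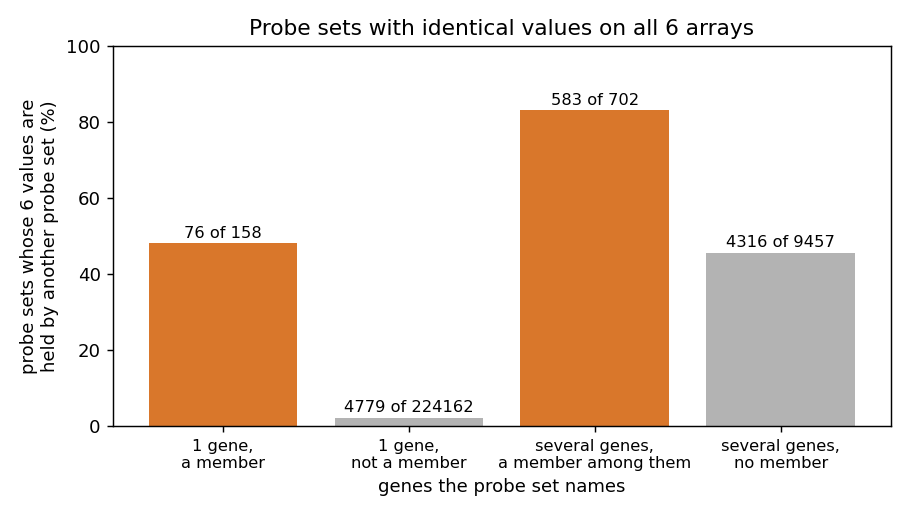
Percent of probe sets whose 6 array values, to 2 decimals, are also held by another probe set, for probe sets naming 1 gene or several genes, with and without a member of the families. The bars for members stand at 48.1% (76 of 158) and 83.0% (583 of 702), where those for probe sets naming no member stand at 2.13% and 45.6%.

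The repeats were concentrated in NPIP and NBPF. NPIP had 46 probe sets but 20 different sets of values, NPIPB3 had 40 with 26, and NPIPB15 had 14 with 7. A set of values at 8.76, 8.40 and 8.68 in control arrays and 8.82, 8.60 and 8.68 in inhibitor arrays occurred in 8 probe sets, all named NPIP. Identical values also crossed gene names. NBPF8 and NBPF10 each have a probe set at 10.70, 10.53 and 10.78 in control arrays and 10.89, 10.53 and 10.85 in inhibitor arrays. In all 5 probe sets held these values, 2 naming 1 gene, 2 naming several genes and 1 unnamed. Both probe sets of NBPF8 and the only one of NBPF20 were shared in this way, so these 2 genes have no value of their own. GOLGA6C, the GOLGA8 members, RGPD4 and NOTCH2NL had no shared probe set.

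The comparison of inhibitor with control arrays asked which of these genes differ when AGS cells receive the miR-25-3p inhibitor. A gene's value on an array was the mean log2 value of the probe sets naming it alone, and each difference below is inhibitor minus control on the log2 scale with limma's moderated standard error (SE). The data for 19 genes held 4 with a difference of at least 2-fold. GOLGA8EP, NOTCH2NL and RGPD4 were higher and GOLGA6C was lower in inhibitor arrays, while the other 15 genes differed by at most 0.30 on the log2 scale. In limma, 0 of the 19 genes passed an adjusted p of 0.05, with 0% of all genes called and a smallest adjusted p of 0.79 over all genes. At an unadjusted p under 0.05 there were 5 members higher and 1 lower, where 2.95% and 3.16% of all genes stood. Over all 18656 genes 0.0643% differed by at least 2-fold, and GOLGA6C and GOLGA8EP ranked 3 and 4 by p, a rank that was part of the reason for choosing the set. The p-values measure only the spread between these samples.

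In 6 members (31.6%) the 3 inhibitor arrays lay wholly above or wholly below the 3 control arrays, where 12.9% of all genes did. GOLGA8EP, NBPF10, NBPF20, NOTCH2NL and RGPD4 were higher (5.19% of all genes) and GOLGA6C lower (7.68% of all genes). Since the comparison was known when the set was made, nothing is read from these counts. The median difference over the members was 0.105, with 13 positive and 6 negative, against 0.0021 over all genes. Without GOLGA6C, GOLGA8EP and RGPD4, the median was 0.093 and 3 of 16 had arrays apart. Leaving out 1 array moved the median of the 19 between 0.043 (without inhibitor 1) and 0.195 (without control 3).

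**Figure D2:**
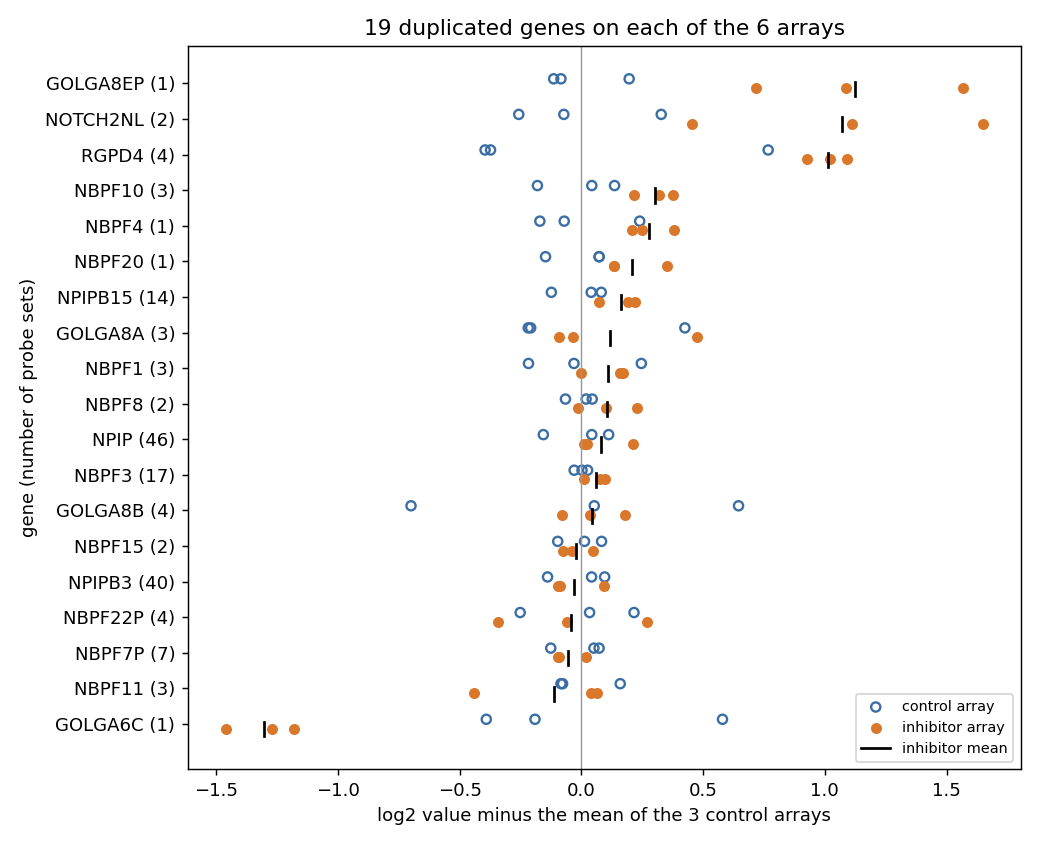
Log2 value of each of the 19 genes on each array relative to that gene's mean over the control arrays, with open points for control arrays, filled points for inhibitor arrays and a bar at the inhibitor mean. GOLGA6C lies below its control arrays, GOLGA8EP, NOTCH2NL and RGPD4 lie about 1 log2 unit above theirs, and most NBPF and NPIP genes lie near 0.

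GOLGA6C, a golgin copy on chromosome 15, was read by 1 probe set at 2.21, 2.98 and 2.01 in control arrays and 1.13, 0.94 and 1.22 in inhibitor arrays. Every inhibitor array was below every control array, and all 6 values were far under the array medians of 6.02 to 6.07. The difference was -1.30 (SE 0.22), 2.47-fold lower, with limma's adjusted p = 0.79. GOLGA6C is among the dimmest 30% of genes, and when probe sets that name it with other GOLGA6 copies were added to its value the difference was -0.021. Those 57 probe sets held 29 different sets of values with a mean difference of 0.026, of which 20 were positive and 9 negative, and 1 had arrays apart. Their means were 4.65, 4.63 and 4.63 in control arrays and 4.71, 4.73 and 4.55 in inhibitor arrays, which overlap. The lowest of the 29 differed by -1.02 and the highest by 1.21, so the spread among probe sets of this family was nearly as wide, in both directions, as the difference of the 1 probe set naming GOLGA6C alone. The 5 probe sets naming GOLGA6 copies other than GOLGA6C held 3 different sets of values, 2 of them apart higher, with differences of 0.79 and 0.95, and 1 overlapping, at -0.18. The mean difference of the 3 was 0.52, and the arrays of that mean overlapped.

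GOLGA8EP, a GOLGA8 copy that RefSeq now lists as a pseudogene, was also read by 1 probe set. Its values were 4.17, 4.14 and 4.45 in control arrays and 5.82, 4.97 and 5.34 in inhibitor arrays, all below the array medians. The inhibitor arrays were all higher, by 1.12 (SE 0.20) or 2.18-fold, with limma's adjusted p = 0.79. With the probe sets that name it beside other GOLGA8 copies the difference was -0.040. The 37 different sets of values in those 117 probe sets had a mean difference of -0.013, with 21 positive and 16 negative, and ran from -0.79 to 0.69. The difference of the probe set naming GOLGA8EP alone lay outside that range.

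The other GOLGA8 genes, GOLGA8A and GOLGA8B, did not differ in this way. GOLGA8A stood at 6.05, 6.04 and 6.69 in control arrays and 6.74, 6.23 and 6.17 in inhibitor arrays, so the groups overlapped and the difference was 0.12 (SE 0.21). GOLGA8B stood at 3.22, 3.97 and 4.56 in control arrays and 3.95, 3.84 and 4.10 in inhibitor arrays, a difference of 0.045 (SE 0.28) within the range of the controls. Its sign depended on the processing: with the median of its 4 probe sets it was -0.042, with probe sets naming several genes -0.16, without control 1 it was -0.30 and without inhibitor 3 -0.022. Its largest positive values were 0.37 without control 3 and 0.34 with its brightest probe set, and without control 2 or inhibitor 2 it was 0.072 or 0.11. Taken on the same array, GOLGA8A minus GOLGA8EP fell by 1.01 and GOLGA8B minus GOLGA8EP fell by 1.08 from control to inhibitor arrays, with the arrays apart in both. GOLGA8A minus GOLGA8B changed by 0.072, with overlapping arrays. The 49 probe sets naming both GOLGA8A and GOLGA8B held 28 different sets of values with a mean difference of -0.14, 10 positive and 18 negative. The lowest of them was at 5.23, 5.74 and 5.61 in control arrays and 3.17, 4.20 and 5.07 in inhibitor arrays, a difference of -1.38 in which all inhibitor arrays were lower.

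RGPD4, the only RGPD copy with probe sets of its own, was read by 4. Its values were 2.96, 2.99 and 4.13 in control arrays and 4.45, 4.29 and 4.38 in inhibitor arrays. The inhibitor arrays were close together and all higher, and control 3 stood more than 1 log2 unit above controls 1 and 2. The difference was 1.01 (SE 0.28), 2.02-fold, with limma's adjusted p = 0.79. Without control 3 it was 1.40 (SE 0.10) with limma's adjusted p = 0.017, and RGPD4 was then the only gene called among all genes. The result also rested on 1 probe set, at 1.60, 1.25 and 3.02 in control arrays and 4.98, 5.15 and 3.75 in inhibitor arrays, a difference of 2.67. The remaining 3 differed by 0.60, 0.48 and 0.30, and without the probe set of 2.67, a choice made after its values were seen, the gene's difference was 0.46 with overlapping arrays. The median of the 4 gave 1.68 and the brightest alone 0.48. All 4 were positive, and in 2 the arrays were apart.

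The values of that probe set were of a kind common among dim probe sets, in which the same number recurs in at least 100 probe sets of an array and at least 3 times as often as its neighbours within 0.1. For 6 of the 158 probe sets (3.80%) all 6 arrays held such recurrent values, against 11.1% of probe sets naming 1 gene outside the families. They were 2 of RGPD4, 3 of GOLGA8B and 1 of NOTCH2NL. Their part in the differences was not tested.

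**Figure D3:**
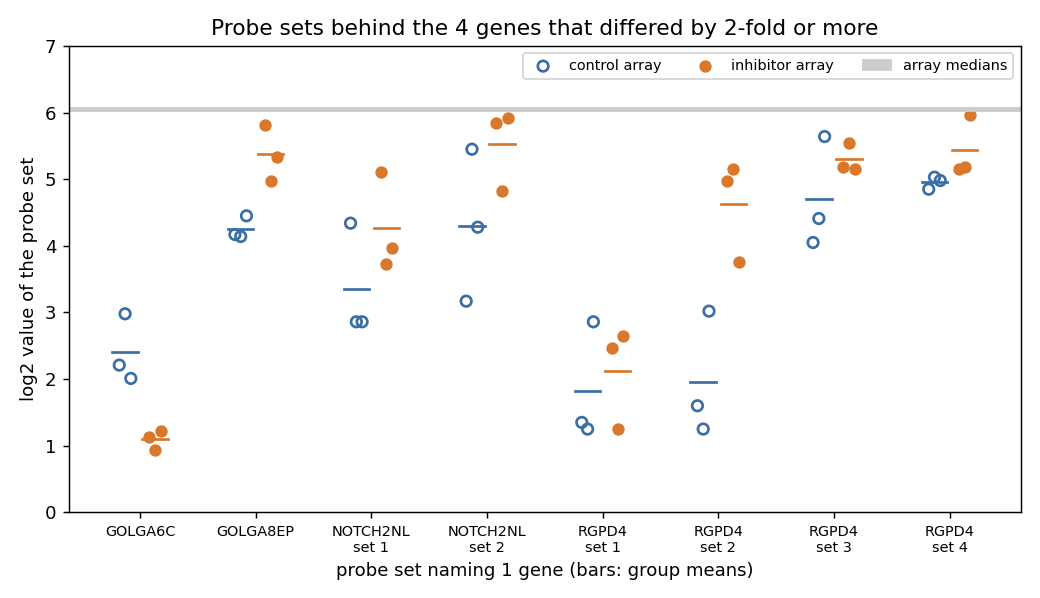
Log2 values on each control and inhibitor array of the probe sets that name GOLGA6C, GOLGA8EP, RGPD4 or NOTCH2NL alone, with bars at group means and a grey line at the array medians. The 4 probe sets of RGPD4 differ by 0.30 to 2.67 and the 2 of NOTCH2NL by 0.91 and 1.23, and GOLGA6C and GOLGA8EP have 1 probe set each.

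Probe sets that RGPD4 shares with other copies gave smaller differences, and adding them brought the gene's difference to 0.19. The 30 probe sets naming RGPD4 with other RGPD genes held 13 different sets of values with a mean difference of 0.037, 8 positive and 5 negative. The 90 that also name RANBP2 held 26, all positive, from 0.010 to 0.62 with a mean of 0.21. Of the 26, 6 had arrays apart, all higher, where 6.04% of all probe sets naming several genes were, with repeats counted in that share. Their means were 9.92, 10.11 and 10.34 in control arrays and 10.32, 10.26 and 10.41 in inhibitor arrays, which overlap because control 3 lies above inhibitors 1 and 2. RANBP2 itself, read by 14 probe sets of its own, stood at 8.60, 8.86 and 8.95 in control arrays and 9.13, 9.04 and 9.15 in inhibitor arrays. Its inhibitor arrays were all higher, by 0.31 (SE 0.11), with limma's adjusted p = 0.79. This value was 0.53 with the median of its probe sets, 0.16 with the brightest and 0.20 without control 1. The 15 probe sets naming RGPD copies without RGPD4 and without RANBP2 had a mean difference of -0.19, 4 positive and 7 negative among 11 different sets of values.

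NOTCH2NL was read by 2 probe sets and stood at 3.76, 4.16 and 3.57 in control arrays and 5.48, 4.28 and 4.94 in inhibitor arrays. Inhibitor 2 lay just above control 2 but the groups did not overlap, and the difference was 1.07 (SE 0.28) or 2.10-fold with limma's adjusted p = 0.79. Neither probe set separated the groups alone. The first was at 4.34, 2.86 and 2.86 in control arrays and 5.11, 3.73 and 3.96 in inhibitor arrays, and the other at 3.17, 5.45 and 4.28 and at 5.84, 4.83 and 5.92. Their differences were 0.91 and 1.23. The 3 probe sets naming NOTCH2NL together with NOTCH2 differed by -0.037, 0.15 and 0.34, and with them the gene's difference was 0.28. NOTCH2, the receptor from which the copies derive, stood at 8.58, 8.29 and 8.44 in control arrays and 8.52, 8.27 and 8.41 in inhibitor arrays, a difference of -0.039 (SE 0.11) with overlapping arrays that turned to 0.033 without control 1 and to 0.026 without inhibitor 2. It was -0.11 without control 2, -0.10 without inhibitor 1 and -0.24 with its brightest probe set.

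**Figure D4:**
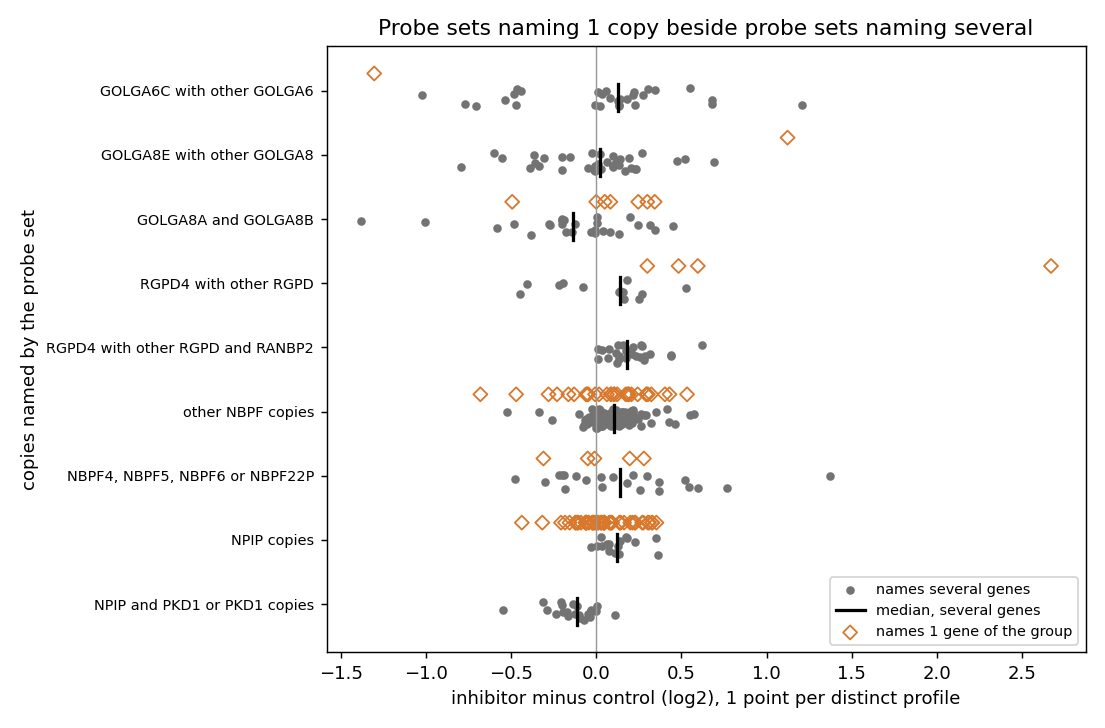
Inhibitor minus control on the log2 scale, 1 point per different set of 6 values, by the copies named: diamonds for probe sets naming 1 gene, filled points for those naming several, and a bar at the median of the latter. The shared sets lie on both sides of 0 for GOLGA6 and GOLGA8 copies, those naming RGPD4 with RANBP2 run from 0.010 to 0.62, and most of those naming NPIP with PKD1 (20 of 23) lie below 0.

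Among the 10 NBPF genes 6 differences were positive and 4 negative, with a median of 0.083. NBPF10 had the most positive, with values of 8.92, 8.70 and 9.02 in control arrays and 9.26, 9.20 and 9.10 in inhibitor arrays. All inhibitor arrays were higher, by 0.30 (SE 0.11), with limma's adjusted p = 0.79. Of its 3 probe sets, the one whose values no other probe set holds was at 8.32, 8.29 and 8.22 in control arrays and 8.99, 8.89 and 8.55 in inhibitor arrays, a difference of 0.53. The shared ones differed by 0.087 and 0.29, with overlapping arrays, the brightest of the 3 alone gave 0.087, and adding probe sets that name several genes gave 0.12. The value of 0.29 belonged to 11 probe sets, of which 7 name several NBPF genes and 3 are unnamed.

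NBPF20, read by 1 shared probe set, was at 11.27, 11.05 and 11.27 in control arrays and 11.55, 11.33 and 11.33 in inhibitor arrays, higher by 0.21 (SE 0.11) with no overlap. NBPF4, with 1 probe set, was higher by 0.28 (SE 0.12), but its control 2 at 6.87 lay above inhibitor 1 at 6.84. NBPF11 had the most negative difference, with values of 7.33, 7.56 and 7.32 in control arrays and 7.44, 7.47 and 6.96 in inhibitor arrays, overlapping, and a difference of -0.11 (SE 0.15). Its sign was positive when probe sets were combined by their median (0.17), when probe sets naming several genes were added (0.11) and without inhibitor 3 (0.052). Without control 2 it was -0.032, without inhibitor 1 -0.19, without inhibitor 2 -0.20, and with the brightest probe set alone -0.23. NBPF3, with 17 probe sets the best covered of the family, stood at 7.12, 7.17 and 7.15 in control arrays and 7.24, 7.16 and 7.22 in inhibitor arrays, a difference of 0.061 (SE 0.083). The median of its probe sets in place of their mean gave 0.30 and the brightest alone 0.11. Its probe sets ran from -0.68 to 0.43, 11 positive and 6 negative. NBPF1, NBPF8, NBPF15, NBPF22P and NBPF7P differed by 0.11, 0.105, -0.022, -0.043 and -0.056, all with overlapping arrays. NBPF7P and NBPF22P were dim, and single probe sets of NBPF7P ran from -0.55 to 0.55.

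Probe sets naming several NBPF copies held mostly positive differences, and some of them repeat values of NBPF10. The values of its 2 shared probe sets are also held by 7 and by 2 probe sets that name several NBPF genes. Such repeats count once among the different sets of values below. The 188 without NBPF4, NBPF5, NBPF6 or NBPF22P held 97 different sets of values, 79 positive and 17 negative, with a mean difference of 0.105, and 11 were apart higher and 1 lower. Among all probe sets that name several genes, with repeats counted, 11.8% had arrays apart, and nothing is read from the 11 and 1. The means of the 97 stood at 9.47, 9.26 and 9.43 in control arrays and 9.64, 9.44 and 9.39 in inhibitor arrays, with inhibitor 3 inside the range of the controls. The 45 probe sets naming NBPF4, NBPF5, NBPF6 or NBPF22P together held 22, with a mean difference of 0.18, 14 positive and 8 negative. The highest of these, naming NBPF4 and NBPF6, was at 3.42, 5.28 and 4.82 in control arrays and 5.72, 5.91 and 6.01 in inhibitor arrays, a difference of 1.37.

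The 3 NPIP genes had between 14 and 46 probe sets, and their differences lay between -0.029 and 0.16. NPIP stood at 8.97, 8.70 and 8.90 in control arrays and 9.07, 8.87 and 8.88 in inhibitor arrays, a difference of 0.082 (SE 0.11) with overlap. That value was 0.0040 without control 2, 0.017 without inhibitor 1 and 0.14 without control 1, and 0.013 with probe sets naming several genes. Of its 46 probe sets 33 were positive and 13 negative, and 10 were apart, all higher, where 5.89% of all probe sets naming 1 gene were, but 37 of the 46 repeated values of others. NPIPB15 stood at 7.80, 7.64 and 7.84 in control arrays and 7.98, 7.83 and 7.95 in inhibitor arrays, where only control 3 reached above an inhibitor array, and differed by 0.16 (SE 0.096) with all 14 probe sets positive. Without control 2 the difference of NPIPB15 was 0.0998, and its brightest probe set alone gave 0.077. NPIPB3 stood at 9.79, 9.55 and 9.73 in control arrays and 9.79, 9.61 and 9.60 in inhibitor arrays, with a difference of -0.029 (SE 0.10) and 15 of its 40 probe sets positive. Its sign turned with the brightest probe set, at 0.087, with probe sets naming several genes, at 0.031, without control 1, at 0.019, and without inhibitor 3, at 0.0041, and leaving out any 1 array moved it by more than 1.5 times, to -0.098 at the lowest without control 2.

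Of the 51 pairs of genes within a family, NPIP and NPIPB3 followed each other most closely from array to array, and they are shown for that reason. Pearson's r of their deviations from the group means was 0.998. Over the 51 pairs r ran from -0.89 to this value with a median of 0.19. Most of the 51 are NBPF pairs, so that median says little about other families. For NPIP with NPIPB15 r was 0.82, for NPIPB15 with NPIPB3 0.80, and for NBPF20 with NBPF7P 0.97. NPIP is also an older name of NPIPB3, so these labels need not stand for different copies. NPIP minus NPIPB3 was -0.82, -0.85 and -0.83 in control arrays and -0.71, -0.73 and -0.72 in inhibitor arrays. The level of this offset has no meaning, since the probes differ, but it was constant to an SD of 0.017 and 0.011 within the groups and changed by 0.11 between them, with the arrays apart. NPIPB15 minus NPIPB3 changed by 0.19, also with the arrays apart, and NPIP minus NPIPB15 by -0.079 with overlap. Over all 51 pairs of genes within a family the difference within an array was apart between groups in 13 (25.5%), of which 5 were among the 9 pairs with NBPF10. No share over pairs of other genes was taken, and the pairs use the same selected members again, so nothing is read from this count. No test was made of these pairs, and 3 arrays against 3 in an exact permutation test cannot reach the threshold.

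Probe sets naming several NPIP copies alone and those naming NPIP with PKD1 or its copies mostly differed in opposite directions. The 37 naming several NPIP copies alone held 16 different sets of values, 15 positive and 1 negative, with a mean difference of 0.13. The 47 naming NPIP with PKD1 or its copies held 23, of which 2 were positive and 20 negative, with a mean difference of -0.13. On the same array the first mean minus the second was 0.37, 0.17 and 0.54 in control arrays and 0.60, 0.56 and 0.69 in inhibitor arrays, a change of 0.26 with every inhibitor array higher. This contrast was chosen after its values were seen. The means of each kind alone overlapped between the groups. The 6 probe sets naming NPIP with a gene other than PKD1 or its copies held 6 different sets of values. All were positive, with a mean difference of 0.14, and their means also overlapped.

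**Figure D5:**
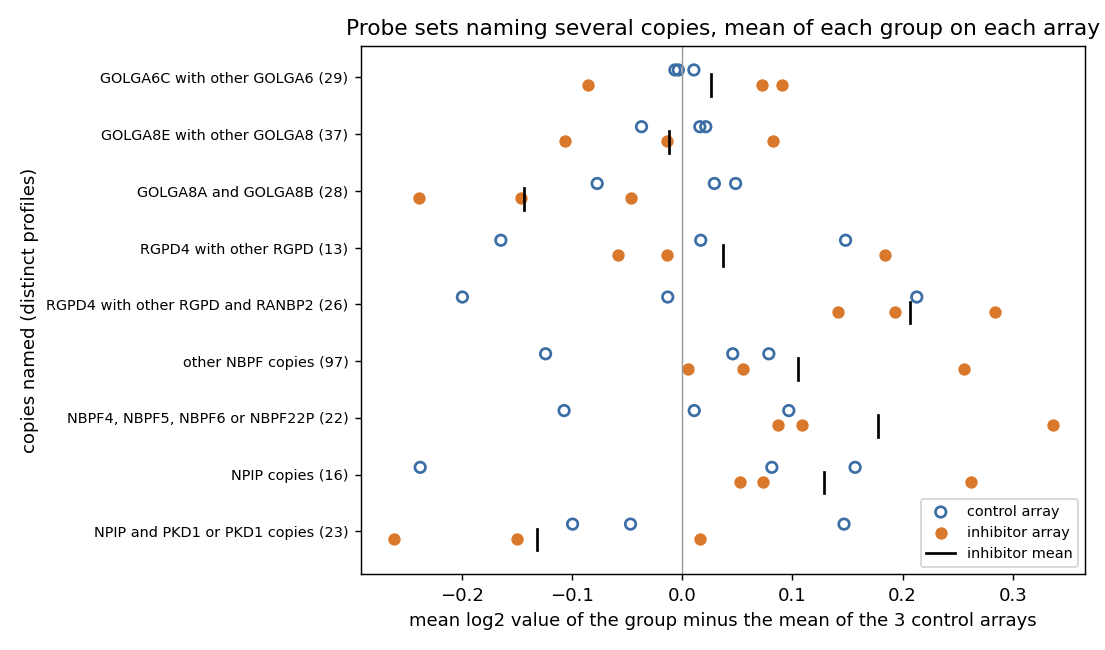
Mean log2 value per array of the different sets of values in probe sets naming several genes, by the copies they name, relative to the mean of the control arrays, with a bar at the inhibitor mean. The control and inhibitor arrays overlap in every kind shown, also where RGPD4 is named with RANBP2, whose mean difference is 0.21.

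Over all 702 probe sets naming a member with others, 320 different sets of values were held, 213 with a positive and 105 with a negative difference and a median of 0.085. In 25 of the 320 the inhibitor arrays were all higher and in 5 all lower. Over all 10159 probe sets naming several genes 6.04% were higher and 5.71% lower, but those shares count repeated values each time. In limma 0 of the 320 were called (0% of all probe sets naming several genes), and the lowest adjusted p was 0.76. Of the 158 probe sets naming 1 member, 28 had arrays apart, 23 higher and 5 lower, where 12.2% of all probe sets naming 1 gene did, and their median difference was 0.077 with 100 positive and 57 negative. The shares over all such probe sets were 5.89% higher and 6.32% lower. Repeats are counted each time in these numbers, and the 158 probe sets held only 110 different sets of values, so nothing is read from them. In limma 0 of the 158 were called (0% of all), 6 had an unadjusted p under 0.05 (6.21% of all), and the lowest adjusted p among them was 0.76.

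The members are described here by the number of their probe sets. The 14 members with 1 to 4 probe sets had a median absolute difference of 0.16, against 0.107 for all 3712 genes with 1 to 4, and held all 6 members with arrays apart, where 10.9% of those 3712 genes were apart. As the members were selected on their differences, nothing is read from this count. The 5 members with more had a median absolute difference of 0.061 and none apart, where all genes, with any number of probe sets, had 0.091 and 12.9% apart. With 5 members nothing is read from this either. The 4 genes that differed by 2-fold also varied more among arrays of a group than genes with as many probe sets did at the median. The SD within groups was 0.376 for GOLGA6C and 0.325 for GOLGA8EP, where the median of the 1045 genes with 1 probe set was 0.165. It was 0.473 for NOTCH2NL, with a median of 0.174 over genes with 2 probe sets, and 0.474 for RGPD4, with a median of 0.159 over genes with 4. GOLGA8B, with an SD of 0.485, had almost no difference, and NBPF3, averaged over 17 probe sets, had an SD of 0.037 where such genes had a median of 0.122.

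By the likeness of their 6 values, the members closest to GOLGA8EP were NOTCH2NL (Pearson's r 0.91), NPIPB15 (0.86) and NBPF3 (0.86), and those closest to RGPD4 were NBPF10 (0.88), GOLGA8EP (0.84) and NPIPB15 (0.82). None came close to GOLGA6C, with NBPF11 highest at 0.36. These are descriptions over 6 arrays that fall into 2 groups, so genes that differ in the same direction score high.

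Lists of genes related to the families were read beside them. Of 15 golgins and Golgi tethers 7 were higher and 8 lower in inhibitor arrays, with a median difference of -0.073 and none called. GOLGA2, the parent of the GOLGA6 and GOLGA8 copies, stood at 7.79, 7.71 and 7.79 in control arrays and 7.79, 7.59 and 7.55 in inhibitor arrays, with overlap and a difference of -0.12 (SE 0.097), which was -0.20 without inhibitor 1 and -0.077 without inhibitor 3. GOLGA4, a trans-Golgi golgin with a GRIP domain, was the highest at 0.26 (SE 0.11) with arrays apart, and GORAB, another Golgi protein, the lowest at -0.28. Of 10 genes of RanBP2 and nuclear transport measured, 6 were higher and 4 lower with a median of 0.037, and RANBP2 was the most positive, with a difference larger in size than those of 15 of the 19 members. Of PDE4DIP, which carries Olduvai repeats as NBPF genes do, and SMG1, whose partial copies lie among those of NPIP, neither was called, with differences of 0.19 (arrays apart) and 0.22 (overlapping).

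Symbols starting as in other duplicated families, such as POTE, PRAMEF, SPDYE and TBC1D3, gave 46 further genes. This rule also took in TBC1D30, TBC1D31 and TBC1D32, which are not TBC1D3 copies, with differences of -0.084, -0.008 and 0.21 and overlapping arrays. Of the 46, 30 were higher and 16 lower, with a median difference of 0.055. Their median absolute difference was 0.13, where it was 0.11 over the members and 0.091 over all genes. In 4 of the 46 (8.70%) the arrays were apart, where 12.9% of all genes were, and POTEG, a POTE copy read by 1 probe set, was the only one beyond 1.5-fold (0.386% of all genes), at 1.10 with overlapping arrays.

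The array values ran from 0.46 to 13.67. The mean of 6 epithelial markers was 9.54 to 9.60 on every array, with KRT8, an epithelial keratin, the brightest and CDH1, the gene of E-cadherin, the dimmest at 6.11. The list means lay below the array medians on all 6 arrays for leukocytes (3 of 4 markers measured, 3.28 to 3.73), fibroblasts (4.49 to 4.71), endothelium (3.57 to 4.03) and testis and germ cells (3.72 to 3.94). Of the single markers in these 4 lists, COL1A1, a collagen gene on the fibroblast list, stood above the array medians at 6.38. The mean of the 3 leukocyte markers was higher in inhibitor arrays (3.59 to 3.73) than in control arrays (3.28 to 3.54). Of the 3 only CD14 had arrays apart, with a difference of 0.46, while those of PTPRC and CD3E overlapped, and the part of this list in the members' differences was not tested. The number of arrays limits the precision of every value here, and fewer cells with a transcript and less of it per cell cannot be told apart.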

How the data were processed

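The submitters' processing notes name Affymetrix Expression Console, Transcriptome Analysis Console and RMA, and versions and settings are not given in the sources used here. The deposited table holds the authors' log2 expression values of 257430 probe sets on 6 arrays, rounded to 2 decimals. RMA brings arrays to nearly one distribution, which hides any shift common to most genes. It summarises each probe set over few probes, and values of different probe sets cannot be compared as levels.

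Gene names came from GEO's platform annotation, in which 224320 name 1 gene, 10159 several, and 22951 are unnamed here. Of 18701 symbols, 16068 were current in RefSeq (GRCh38.p14), 2533 were updated and 100 kept, which gave 18656 genes. A gene's value was the mean of the probe sets naming it alone. The build of the annotation is not given in the sources used here, so no gene coordinates are printed.

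The 3 inhibitor and 3 control arrays were compared in limma 3.58.1 (R 4.3.3, lmFit and eBayes) over all genes, with Benjamini-Hochberg adjustment and a threshold of 0.05. Probe sets naming 1 gene and those naming several were fitted likewise, each kind adjusted over itself. No dim gene was left out; a filter on the dimmest 30% leaves 14 of the 19 members. On simulated arrays of 18656 genes, 10 runs recovered 23.5% of genes changed by 0.5 log2, 90.2% at 1 and 99.1% at 2. These runs drew each gene's variance from limma's prior over all genes and changed many genes at once. In the data 12 genes differed by at least 2-fold and 0 were called. The members among them varied more within groups than the median gene with as many probe sets, so the shares cannot be carried over to them. Same-numbered arrays were not taken to pair, since deviations of replicate 1, 2 and 3 correlated at -0.032, -0.040 and 0.17 over genes and the labels state no shared culture or day.

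The members and all lists were chosen with earlier results of these data known. Values on every array are given for GOLGA6C, GOLGA8EP, RGPD4 and NOTCH2NL, for the members with the most positive and most negative difference and the most probe sets in each family, and for GOLGA2, RANBP2 and NOTCH2. NBPF20, GOLGA8A and probe sets naming several genes were added after their values were seen. The alternatives tried were a replicate block, each array left out in turn, normalization, leaving out dim genes, other summaries of a gene's probe sets and further variance estimates. Counting identical values once, unshared values only, and leaving out GOLGA6C, GOLGA8EP and RGPD4 or 1 probe set of RGPD4 were chosen after seeing the data.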

Additional observations from a re-analysis of the deposited data

How the results depend on the processing

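With the replicate block, limma called 0 genes and 0 members, as without it, and the block changed no other call. No paired reading follows, since not every pair of same-numbered arrays deviated together. Leaving out 1 array gave 0 to 1 genes and 0 to 1 members called (RGPD4, without control 3) and a median difference of 0.043 to 0.195. It gave 6 to 9 members with arrays apart. Fewer arrays lie apart more easily, and no share over all genes was taken, so nothing is read from that range. An unadjusted p under 0.05 gave 1141 genes and 6 members. Members with arrays apart numbered 2 (NBPF3 and NOTCH2NL) with probe sets naming several genes included, where no share over all genes was taken. Without GOLGA6C, GOLGA8EP and RGPD4 they numbered 3 of 16, where 12.9% of all genes were apart. Nothing is read from these counts. Including probe sets naming several genes turned the sign of GOLGA8EP (-0.040), GOLGA8B (-0.16), NBPF11 (0.11) and NPIPB3 (0.031). The median of probe sets turned GOLGA8B (-0.042) and NBPF11 (0.17), and the brightest probe set NPIPB3 (0.087). Without 1 array the range was -0.30 to 0.37 for GOLGA8B (negative without control 1 or inhibitor 3), -0.20 to 0.052 for NBPF11 (positive without inhibitor 3), -0.098 to 0.019 for NPIPB3 (positive without control 1 or inhibitor 3) and -0.11 to 0.033 for NOTCH2 (positive without control 1 or inhibitor 2). The cause of these changes was not tested. Of 14 named genes, 9 kept their sign under the 17 or 18 alternatives that gave each a value, but some of these could not turn a sign. The replicate block and the variance estimates leave every difference as it is. Median centring and symbols as given also left the differences of the 14 genes unchanged. Quantile normalization, which did change them, turned no sign. The 3 arrays per group limit the precision, most for genes read by 1 dim probe set.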
